A study of Citrus maxima and Citrus sinensis with 8 samples.

Results

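The subject here is the difference between 2 citrus species in how their leaf transcripts responded to aluminium, taken from all 8 libraries of the study. The groups were control leaves and aluminium-treated leaves of Citrus sinensis (sweet orange) and the same 2 treatments of Citrus grandis (pummelo, listed under the organism name Citrus maxima). All plants were seedlings, and per the labels the treated ones had aluminium for 18 weeks. Each group had 2 libraries, and each library held RNA from pooled leaves of 5 seedlings, so a replicate is a pool and not a single plant. Neither the aluminium dose nor the age of the seedlings is given in the sources used here. For each gene the aluminium effect (aluminium minus control) in C. grandis was subtracted from that in C. sinensis, on log2(FPKM + 1). FPKM expresses how many fragments fell on a gene relative to its length and to the library size. A positive difference therefore means a higher effect in C. sinensis, which can be a stronger rise or a weaker fall. Of 30297 gene IDs, 16327 had a mean of at least 1 FPKM over the 8 libraries and were tested.

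Aluminium dissolves as a toxic ion in acid soils and acts first on roots, where it stops elongation. Tolerant plants are known to release organic acid anions such as citrate and malate from the root tip, and these bind the ion outside the cell. Leaves are affected later and less directly, through mineral and water supply, photosynthesis and oxidative stress. Per the series title the 2 species differ in tolerance, and C. sinensis is generally regarded as the tolerant one. The files do not pair their IDs with gene names and no annotation was used here, so no function is given for any ID below and leaf marker genes could not be looked up.

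The library totals, rebuilt as whole reads from the FPKM, ranged from 16417422 to 19764090. The replicates of the groups were not equally close. Over genes with at least 20 reads in a pair, the mean chi-square per gene was 1.77 for the 2 C. grandis aluminium libraries, where counting error alone gives 1. It was 9.68 for C. sinensis control, 58.8 for C. grandis control and 82.7 for C. sinensis aluminium. The C. grandis aluminium libraries thus differed by more than counting error but far less than any other pair, and they were kept as 2 replicates. The spread of a gene was estimated once for all 4 groups, so that pair lowers the spread used for every group. Some counts below are given also with these libraries averaged into 1 replicate. The main splits by direction within each species, the gaps and the read shares are not.

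With limma at an adjusted p below 0.05, the aluminium effect differed between the species in 378 genes, 2.32% of those tested. The effect was higher in C. sinensis for 248 genes (1.52%) and lower for 130 (0.796%). The differences of the 248 ran from 0.66 to 5.19 on the log2 scale, with quartiles of 1.19 and 2.10 around a median of 1.49. Those of the 130 ran from -3.85 to -0.85, with quartiles of -2.25 and -1.27 around a median of -1.54. On the scale of FPKM + 1, at least a 2-fold difference was found in 218 of the 248 and 122 of the 130, against 8.76% of all genes tested. At least a 4-fold one was found in 71 and 45, against 1.48% of all genes tested. Calling genes by p favours large differences, so these counts follow in part from the selection. With the C. grandis aluminium libraries averaged into 1 replicate, only 9 genes with a higher and 6 with a lower effect were called, and all 15 were among the 378. In bulk leaf RNA, fewer cells of a type and less RNA per cell cannot be told apart.

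**Figure D1:**
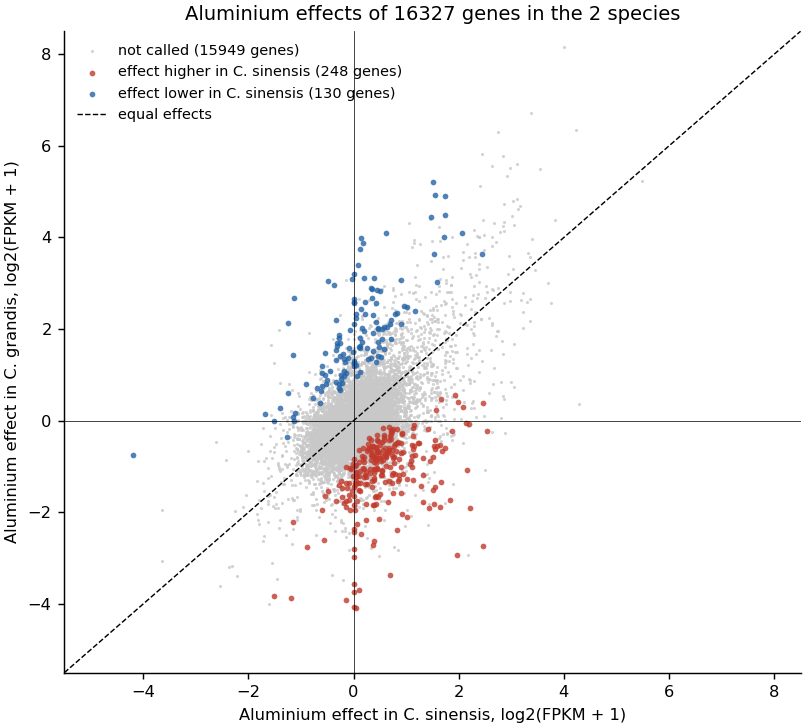
Aluminium effect of each tested gene in C. sinensis (x axis) and in C. grandis (y axis), both as differences of group means of log2(FPKM + 1). Red points are the 248 genes with a higher effect in C. sinensis, blue points the 130 with a lower one, and grey points were not called. Most red points lie below the horizontal zero line and most blue points above it, close to the vertical zero line.

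Which direction was more frequent depended on how the libraries were scaled. As deposited, the median difference over all genes tested was 0.15, and it was -0.04 after each library was centred on its median and 0.01 after quantile normalization. Relative to the deposited median, the 248 genes had a median difference of 1.33 and the 130 one of -1.70. After centring 137 genes were called higher (0.839%) and 209 lower (1.28%), and after quantile normalization 143 (0.876%) and 147 (0.900%). All 137 higher calls after centring were already among the 248, and all 130 lower calls as deposited were among the 209. Of the 248, 97 were called on neither alternative scale. A set of 250 genes was called with the same sign on all 3 scales, 128 of them higher (0.784%) and 122 lower (0.747%) in C. sinensis. The 128 had a median log2 difference of 1.92 and the 122 one of -1.66. With the C. grandis aluminium libraries as 1 replicate, no gene was called on all 3 scales, because limma called 15 genes as deposited, 19 after centring and 0 after quantile normalization, the last with 1536 genes at an unadjusted p below 0.05.

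With all 8 libraries, most genes with a higher effect in C. sinensis fell in C. grandis. By the limma calls within each species, 154 of the 248 fell in C. grandis without a call in C. sinensis, with median log2 effects of -1.22 and 0.27. Another 43 fell in C. grandis and rose in C. sinensis, with medians of -0.94 and 1.02. A further 44 rose in C. sinensis without a call in C. grandis, where the median effects were 1.12 and -0.31, and the other 7 were called in the same direction in both species or in neither. Over all genes tested as deposited, 9.70% fell and 6.41% rose in C. grandis, while 2.60% fell and 3.74% rose in C. sinensis. Among genes called in a single species, the more frequent direction changed after median centring. In C. grandis only, 867 then fell and 1018 rose, against 1320 and 839 as deposited. In C. sinensis only, 480 fell and 155 rose, against 199 and 365 as deposited. These calls use the same libraries as the difference, so the split describes the called genes and does not test them. Median centring gave 84, 24 and 25 genes in the same 3 classes. The majority was lost without C. sinensis aluminium replicate 2: of the 661 genes then called, 212 fell in C. grandis only, 68 also rose in C. sinensis and 4 fell in both, while 207 rose in C. sinensis only and 167 rose in both.

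Among the 130 genes with a lower effect in C. sinensis, a rise in C. grandis was the main form. In 91 genes C. grandis rose and C. sinensis was not called, with median log2 effects of 1.69 and 0.01. Both species rose in 23 genes, by medians of 2.49 in C. grandis and 1.01 in C. sinensis. C. sinensis fell in the other 16, of which 11 were not called in C. grandis and 5 rose there. After median centring the 4 classes held 146, 20, 34 and 9 genes, and after quantile normalization 100, 18, 22 and 7. With 1 library left out, the genes that fell in C. sinensis only numbered 0 to 78. The size of the effect was larger in C. grandis in 118 of the 130 genes and in 176 of the 248, against 54.7% of all genes tested. The median absolute effect over all genes was 0.29 in C. grandis and 0.26 in C. sinensis.

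Of the called genes, 4 are described in full. They had the smallest p of the difference among genes called on all 3 scales, with at least 5 FPKM in the highest group, and were limited to 2 per direction because the IDs carry no names. Cs5g23760 stood in C. sinensis at 63.6 and 72.2 FPKM in control leaves and at 61.7 and 78.7 FPKM with aluminium. In C. grandis it stood at 18.6 and 14.8 FPKM in control leaves, and with aluminium it had 2 reads in one library (0.0704 FPKM) and none in the other. The groups of C. sinensis overlapped, while those of C. grandis lay far apart. The log2 effect was 0.04 in C. sinensis (limma adjusted p = 0.899) and -4.09 in C. grandis, and the difference was 4.13 (SE 0.24, limma adjusted p = 0.003). It was 7.04 with a pseudocount of 0.1 and 8.73 with voom, so its size depends on how near-zero levels are treated. The log2 gap (C. sinensis minus C. grandis) was 1.96 in control leaves and 6.10 with aluminium.

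The gene orange1.1t04258 had the same form. Its levels in C. sinensis were 33.5 and 27.9 FPKM in control leaves and 33.5 and 32.1 FPKM with aluminium. In C. grandis they were 13.5 and 10.4 FPKM in control leaves, from 97 and 85 reads, and no read was found in either aluminium library. The level in C. grandis was 58.7-fold lower with aluminium if 3 reads over the group are taken as the floor. The lower 95% bound of the fold was 47.3, for counting error only. In C. sinensis the aluminium libraries lay within the range of the control libraries, with a log2 effect of 0.10 (limma adjusted p = 0.719). The effects differed by 3.78 (SE 0.22, limma adjusted p = 0.003), and by 7.003 with a pseudocount of 0.1 and 7.56 with voom.

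Cs9g17670 moved in opposite directions. In C. sinensis it fell from 14.2 and 15.1 FPKM to 6.01 and 6.07 FPKM, a log2 effect of -1.15 (limma adjusted p = 0.00948). In C. grandis it rose from 18.4 and 19.2 FPKM to 51.1 and 54.4 FPKM, a log2 effect of 1.44 (limma adjusted p = 0.000868). No group overlapped another, and the log2 gap (C. sinensis minus C. grandis) was -0.34 in control leaves and -2.93 with aluminium. The effects differed by -2.59 (SE 0.14, limma adjusted p = 0.003).

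Cs7g16680 rose in both species but far more in C. grandis. C. sinensis went from 0.412 and 0.377 FPKM to 3.20 and 2.996 FPKM, a log2 effect of 1.55 (limma adjusted p = 0.00948). C. grandis went from 0.451 and 0.632 FPKM to 45.6 and 45.7 FPKM, a log2 effect of 4.92 (limma adjusted p = 8.15e-05). Control levels of the species lay close together, with a log2 gap of -0.14 (limma adjusted p = 0.396). Counted as reads relative to the library totals, the rise was 7.83-fold in C. sinensis and 83.4-fold in C. grandis, and the 95% intervals of 4.94 to 13.0 and 56.7 to 128 cover counting error only. The effects differed by -3.37 (SE 0.18, limma adjusted p = 0.003). These 4 genes kept their calls under all 17 alternatives, each of which changed a single setting. Of these alternatives, 2 were the scalings used to choose the genes, and a choice by the smallest p favours calls in the others. None of the 4 kept its call when quantile normalization was combined with the C. grandis aluminium libraries as 1 replicate.

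**Figure D2:**
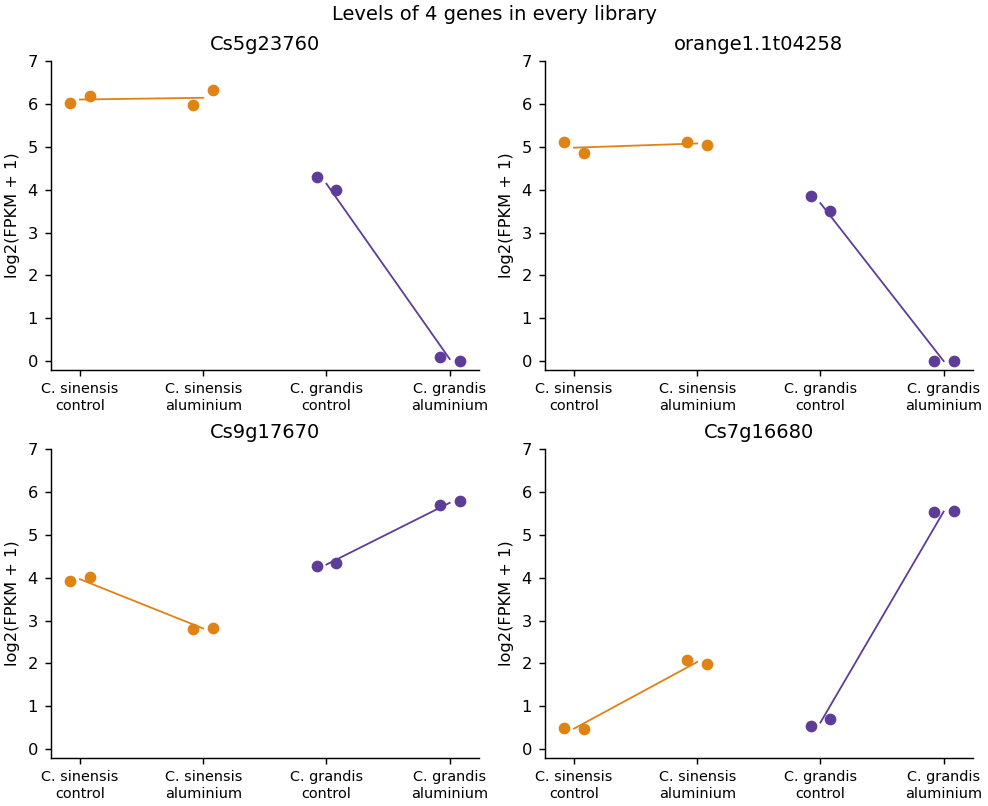
Level of 4 genes in each of the 8 libraries as log2(FPKM + 1), with C. sinensis in orange and C. grandis in purple. Each point is 1 library, and the lines join the mean of the 2 control libraries to the mean of the 2 aluminium libraries. Cs5g23760 and orange1.1t04258 drop to 0 or near it with aluminium in C. grandis and show no such drop in C. sinensis, Cs9g17670 moves in opposite directions, and Cs7g16680 rises further in C. grandis.

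As deposited, the 5 genes that rose in C. grandis but fell in C. sinensis were Cs9g17670 and 4 more, which were picked out after their values were seen. The class held 9 genes after median centring, 7 after quantile normalization, 1 with the C. grandis aluminium libraries as 1 replicate, and from 0 (without either C. sinensis control library) to 29 (without C. grandis control replicate 1) with a library left out. Cs5g31670 fell from 58.9 and 51.0 to 36.0 and 35.5 FPKM in C. sinensis and rose from 14.2 and 11.8 to 28.4 and 27.3 FPKM in C. grandis, with a difference of -1.65 (limma adjusted p = 0.012). Cs6g15710 fell from 72.9 and 79.4 to 50.9 and 42.9 FPKM and rose from 26.5 and 21.5 to 40.4 and 38.8 FPKM, with a difference of -1.40 (limma adjusted p = 0.0261). In both genes C. sinensis was the higher species in control leaves, and with aluminium the gap was 0.35 and 0.23 on the log2 scale, neither of them called. Novel00102 fell from 5.23 and 5.52 to 2.51 and 2.33 FPKM and rose from 1.37 and 1.26 to 3.16 and 2.91 FPKM, with a difference of -1.70 (limma adjusted p = 0.0122). Cs5g33710 fell from 2.50 and 1.64 to 0.127 and 0.446 FPKM and rose from 0.982 and 2.01 to 9.98 and 9.55 FPKM, with a difference of -3.39 (limma adjusted p = 0.012). This last gene had 10 reads in all with aluminium in C. sinensis, and its difference was -5.30 with a pseudocount of 0.1 and -5.63 with voom. Unlike Cs9g17670, these 4 genes lost their call under 5 of the 16 or 17 alternatives that could be run for them.

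The same contrast can be read as a change of the gap between the species. In control leaves 204 of the 248 genes were lower in C. sinensis, 32 were not called and 12 were higher. With aluminium 90 of those 204 were no longer called, 85 were still lower and 29 were higher in C. sinensis. The median gap (C. sinensis minus C. grandis) of the 248 went from -1.58 to -0.09, and the gap was narrower with aluminium in 76.2% of them, against 57.4% of all genes tested. Over all genes, 29.9% were lower and 18.9% higher in C. sinensis in control leaves, and 19.0% and 20.3% with aluminium. The 32 genes without a call in control leaves were all higher in C. sinensis with aluminium.

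For the 130 genes the gap opened or turned more often than it closed. In control leaves 71 were higher in C. sinensis, 46 were not called and 13 were lower. With aluminium all 46 were lower in C. sinensis, and of the 71, 32 were lower, 22 were not called and 17 were still higher. The median gap went from 0.51 to -1.06, and it was narrower with aluminium in 37.7% of the 130. Median centring moved these shares to 43.1% for the 130 and 75% for the 248, with 56.1% for all genes. Gaps and difference share all their libraries, so these counts describe the form of the difference.

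**Figure D3:**
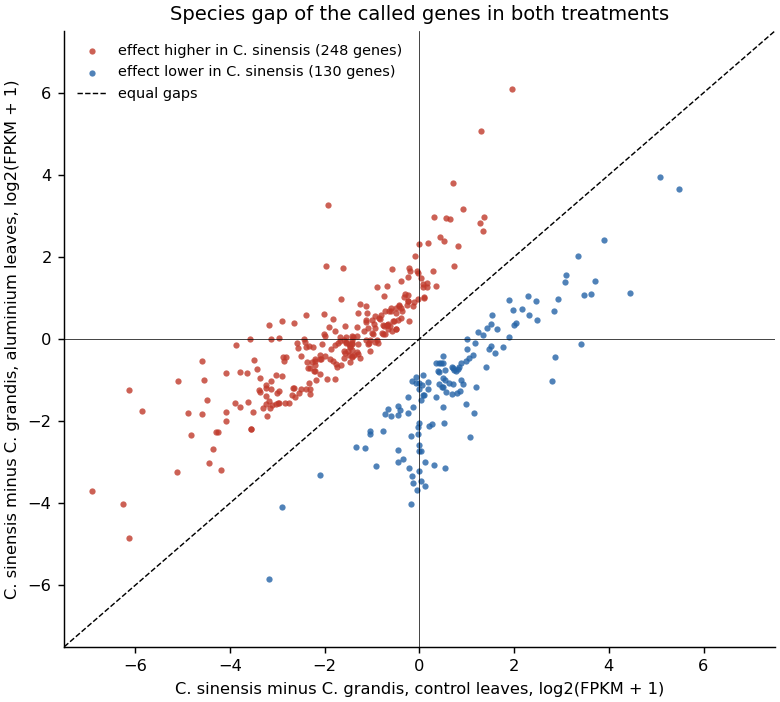
Gap between the species (C. sinensis minus C. grandis, log2(FPKM + 1)) of the called genes in control leaves (x axis) and in aluminium leaves (y axis). Red points (248 genes) have a higher and blue points (130 genes) a lower aluminium effect in C. sinensis, and the dashed line marks equal gaps. The red cloud is centred left of zero on the x axis and lies on both sides of zero on the y axis. Many blue points lie near zero on the x axis and below zero on the y axis.

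Changes of rank between the species were rare in the whole table. Only 38 genes were called lower in C. sinensis in control leaves and higher with aluminium, and 35 the reverse. The difference was called for 29 of these 38 and 32 of these 35, which gaps of opposite sign favour by construction. After median centring the counts were 19 and 59, with 14 and 49 called in the difference on that scale. With the C. grandis aluminium libraries as 1 replicate they were 9 and 8, of which 1 and 0 were called, while all 17 had been called with 2 replicates.

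In terms of transcript abundance, the 248 genes made up 2.52% and 2.75% of all reads of the 2 C. grandis control libraries and 1.27% and 1.26% in its aluminium libraries. In C. sinensis they took 0.930% and 0.967% in control leaves and 1.16% and 1.26% with aluminium. The C. grandis control libraries stood apart on the high side, and the aluminium libraries of both species lay between 1.16% and 1.27%. The 130 genes made up 0.422% and 0.454% of all reads in C. grandis control leaves and 1.70% in both aluminium libraries. In C. sinensis their share was 1.55% and 1.58% in control leaves and 1.34% and 1.41% with aluminium. For this set too the C. grandis control libraries stood apart, here on the low side. The genes were chosen for this contrast, so the shares are given without a test.

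**Figure D4:**
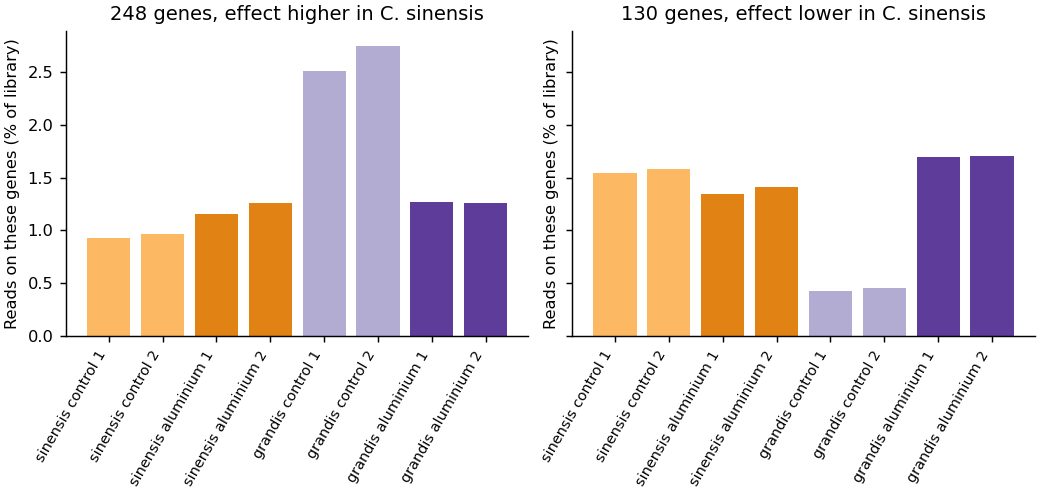
Share of all reads of a library (percent, y axis) that fell on the 248 genes with a higher (left) and the 130 genes with a lower aluminium effect in C. sinensis (right). Each bar is 1 library. The C. grandis control libraries are the highest bars on the left (2.52% and 2.75%) and the lowest on the right (0.422% and 0.454%).

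The called genes were spread over all levels of expression. Their median over the means of the 8 libraries was 11.9 FPKM for the 248 and 14.1 FPKM for the 130, against 12.3 FPKM for all genes tested. The share called higher ran from 1.36% to 2.04% over 7 bins of mean FPKM, and the share called lower from 0.423% to 1.44%. Their residual SD between replicates was smaller than usual, with medians of 0.128 and 0.138 on the log2 scale against 0.169 over all genes. The test divides by this spread, so calling genes favours a small one. In 22 of the 378 genes (5.82%, against 2.51% of those tested) every library of 1 species had fewer than 3 reads, so the difference rests on the other species. That species was mostly C. grandis: 12 of the 248 (4.84%) and 7 of the 130 (5.38%) had so few reads in C. sinensis, against 0.576% of the genes tested. In C. grandis 1 of the 248 (0.403%) and 2 of the 130 (1.54%) did, against 1.93%. The pseudocount of 1 makes an equal fold smaller in the species where a gene is low. Limma's voom on the recovered reads, which does not add 1 FPKM, called 152 of the 248 and 79 of the 130, all with the same sign.

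In all 378 called genes, every effect between an aluminium and a control library of one species lay above every such effect in the other. This separation is common in the table: 29.8% of the genes tested were separated with C. sinensis higher and 11.4% with C. sinensis lower. These shares are for the values as deposited, where the median difference over all genes tested was 0.15.

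How many genes were called varied with the libraries kept. Without C. sinensis aluminium replicate 1 or 2, 901 and 661 genes were called higher and 594 and 250 lower. Without C. grandis control replicate 1 or 2 the counts were 679 and 346 higher and 390 and 236 lower. Without C. sinensis control replicate 1 or 2 they fell to 21 and 23 higher and 18 and 19 lower, and without C. grandis aluminium replicate 1 or 2 to 11 and 9 higher and 9 and 7 lower. Leaving out a library of the pairs with the larger chi-square thus raised the calls, and leaving out one of the closer pairs lowered them.

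**Figure D5:**
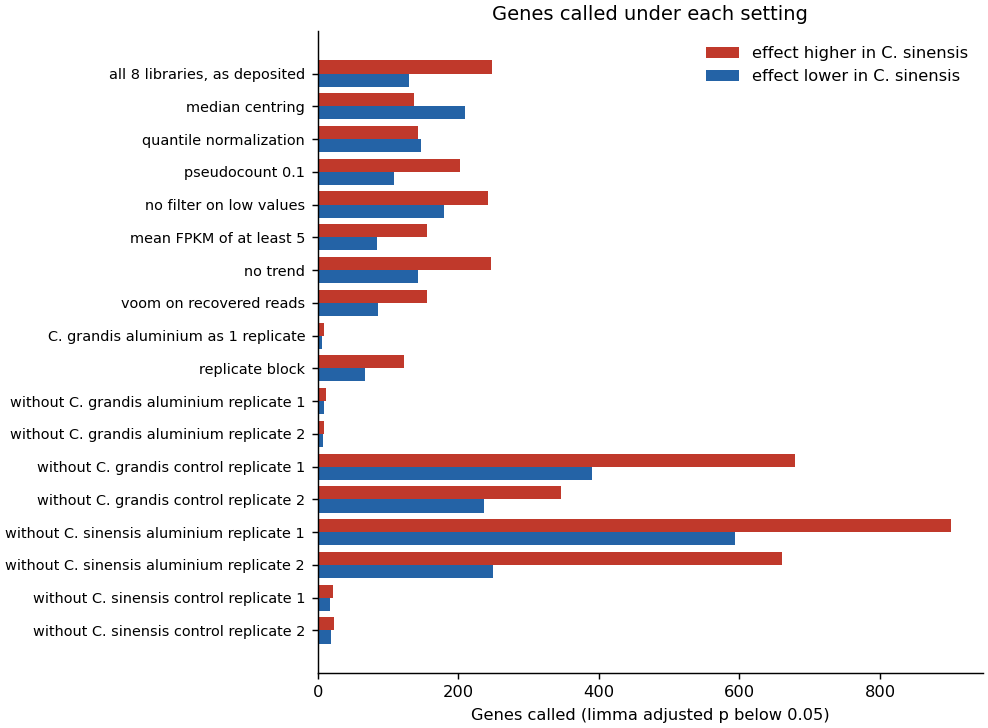
Number of genes called (limma adjusted p below 0.05, x axis) with a higher (red) or lower (blue) aluminium effect in C. sinensis under each setting. The top pair of bars is the result with all 8 libraries as deposited (248 and 130). The bars are shortest with the C. grandis aluminium libraries as 1 replicate (9 and 6) or one of them left out, and longest without C. sinensis aluminium replicate 1 (901 and 594).

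Of the 378 genes, 12 were called without each of the 8 libraries in turn and under 7 other alternatives of scaling, replicates and test. Their differences were between 2.59 and 4.13 in size. The alternatives were run singly. None of the 12 kept its call when quantile normalization was combined with the C. grandis aluminium libraries as 1 replicate. Of these 12 genes 8 had a higher and 4 a lower effect in C. sinensis, and the 4 genes described in full are among them. In 3 of the 12 every C. sinensis library had fewer than 3 reads, so that their difference rests on C. grandis alone. These 3 are Cs7g06070, Cs5g25950 and Novel00798, all listed at 0 in C. sinensis. In C. grandis Cs5g25950 stood at 12.4 and 13.1 FPKM in control leaves and 0.768 and 0.710 FPKM with aluminium, and Novel00798 at 15.6 and 11.98 FPKM and at 0 and 0.225 FPKM. Like these, the other 2 with a lower effect were picked out after their values were seen, and are Cs9g09530 and Cs7g06070. Cs9g09530 stood between 0.182 and 1.25 FPKM in the 6 libraries other than C. grandis aluminium and at 16.7 and 16.2 FPKM there, with a difference of -3.70 (limma adjusted p = 0.003). Cs7g06070 was listed at 0 in those 6 libraries and at 9.56 and 7.06 FPKM with aluminium in C. grandis, with a difference of -3.21 (limma adjusted p = 0.00402). Both Cs9g09530 and Cs7g06070 passed the filter on mean FPKM only through C. grandis aluminium. Cs5g25950 and Novel00798 passed it only through C. grandis control. Groups listed at 0 add nothing to the residual spread, so the calls of Cs7g06070, Cs5g25950 and Novel00798 rest partly on these zeros.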

How the data were processed

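Leaf mRNA of 2 citrus species was measured in 8 libraries. The authors deposited FPKM, per the file headers, as 1 table per group. Bowtie, TopHat2, HTSeq and edgeR 1.18.0 appear, with no roles, in the submitters' processing notes. For the genome build and the gene annotation nothing is given in the sources used here. The same 30297 IDs are listed for both species, and the effect of sequence differences on the counting was not tested. The tests used limma 3.58.1 (R 4.3.3) and log2(FPKM + 1) as deposited, with a mean per group, a trend on expression and 4 residual degrees of freedom. P-values are two-sided and adjusted by the Benjamini-Hochberg method over the 16327 genes with a mean of at least 1 FPKM. P-values set each difference against 1 spread per gene, estimated between pools of seedlings over all 4 groups. The close C. grandis aluminium pair lowers that spread, and whether its 2 libraries came from separate pools was not tested.

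Whole reads were rebuilt from the FPKM: for each of the 22312 IDs above 0 in several libraries, a step was sought that makes every value whole within 0.001 reads. Reads served for totals, counting intervals, floors of 3 reads and voom. The fit was tested on simulated data. The contrast, rules and lists were chosen with earlier results of these data known. Named genes were those called with the same sign on all 3 scales, separated in all pairs of libraries and with at least 5 FPKM in the highest group, 2 per direction by the smallest adjusted p. Ties were broken by the unadjusted p, a choice made after the ties were seen. Gene lists and cell type markers could not be matched to the IDs and were not used. Alternatives were 2 other scalings, a pseudocount of 0.1, 2 other filters, no trend, voom, the C. grandis aluminium libraries as 1 replicate, a replicate block and each library left out.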

Additional observations from a re-analysis of the deposited data

Results flagged for a closer look

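By limma's test of the difference itself, 378 genes responded unequally to aluminium in the 2 species, and 8 of those described above are listed again here. The log2 difference (C. sinensis effect less C. grandis effect) was 4.13 for Cs5g23760, 3.78 for orange1.1t04258, -2.59 for Cs9g17670 and -3.37 for Cs7g16680. It was -1.65 for Cs5g31670, -3.39 for Cs5g33710, -1.70 for Novel00102 and -1.40 for Cs6g15710. No group had the 4 libraries needed to look for a library that stands apart in a single gene.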

How the results depend on the processing

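As deposited, 248 genes had a higher and 130 a lower effect in C. sinensis. These counts became 137 and 209 after median centring, 143 and 147 after quantile normalization, 156 and 86 with voom, 156 and 84 at a mean of at least 5 FPKM, where fewer genes were tested, and 9 and 6 with the C. grandis aluminium libraries as 1 replicate. The cause of these shifts was not tested. The counts stayed within 1.5 times with a pseudocount of 0.1 (203 and 108), no filter on low values (242 and 180) and no trend (247 and 142). The genes were not all the same. Of the 248 and 130, 195 and 99 were still called with that pseudocount, 195 and 108 with no filter and 219 and 123 with no trend. Leaving out 1 library gave 9 to 901 and 7 to 594 genes. The calls shared by all 3 scales, 128 and 122, became 0 and 0 with those libraries as 1 replicate, and 0 to 503 and 0 to 585 with a library left out. Labels give the replicates of all groups the numbers 1 and 2 without saying that a number marks shared material, and deviations of same-numbered libraries correlated at -0.01 to 0.05 over the 6 pairs of groups. A replicate block gave 122 and 67 calls. Over the alternatives, none of the differences of the 8 genes described with their tests changed sign; 114 values kept the call and 20 lost it, all 20 in the 4 opposite genes other than Cs9g17670, with the C. grandis aluminium libraries as 1 replicate or without one of them or of the C. sinensis control libraries. With 2 pools per group, depth limits genes of a few reads, and the spread between pools limits the others.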

Other observations

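The called genes were also counted by the series of their IDs, which is a description with no test. Among the 557 tested genes whose IDs belong to none of the numbered or orange1.1t series, 15 (2.69%) had a lower and 5 (0.898%) a higher aluminium effect in C. sinensis. In the 9 numbered series from Cs1g to Cs9g the share with a lower effect ran from 0.416% to 0.928%, and that with a higher effect from 0.935% to 1.96%. Among the 204 genes of the numbered series with a higher effect, 12 (5.88%) were next in the numbering to another such gene, against 2.98% of the 13442 tested genes of these series.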
